A study of Homo sapiens with 8 samples.

Results

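Transcripts of 8 cyclin-dependent kinases that work outside the core cell cycle engine were followed in human myeloma cells treated with Zalypsis, a DNA-binding drug candidate first modelled on marine compounds. The genes were CDK14, CDK16, CDK17, CDK5, CDK8, CDK19, CDK12 and CDK13. They were taken as every probe set annotated to 1 of these genes under its current or an older symbol, which gave 31 of the 41091 probe sets with 1 gene symbol on the array. Of these 31 probe sets, 23 had a mean signal above the limit of 27.2 set for testing and 8 did not, and each of the 8 genes kept at least 1 probe set. CDK14 was chosen for its fall with Zalypsis in MM1S cells, and the other genes joined it as kinases of related type, so every MM1S comparison of the 8 genes is given here as a description without a test.

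The study used 8 HG-U133 Plus 2.0 arrays in 4 groups of 2: OPM1 cells with Zalypsis, OPM1 control cells, MM1S cells with Zalypsis and MM1S control cells. MM1S and OPM1 are established lines derived from multiple myeloma, which arises from plasma cells, and each stands for 1 tumour. Zalypsis was given at 5 nM, and cells were collected when 15 to 20% of them were dying. Neither the hours of treatment nor what the control cells received is stated in the labels, and they do not say whether the 2 arrays of a group had their own cultures. The p-values therefore rest on array-to-array spread that may be only technical.

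Cyclin-dependent kinases are active when bound to a partner protein. CDK14, CDK16 and CDK17 belong to a branch of which CDK14 and CDK16 bind cyclin Y at membranes, and CDK14 with cyclin Y phosphorylates the Wnt co-receptor LRP6. CDK5, best known from neurons, is activated by the non-cyclin protein p35. CDK8 and CDK19 are alternative kinases of the Mediator complex, where they work with cyclin C, MED12 and MED13, and CDK12 and CDK13 bind cyclin K and phosphorylate the tail of RNA polymerase II during elongation.

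The OPM1 arrays went against their label in part. Of the 8 plasma cell markers, all were above the limit of 27.2 on average in both MM1S groups, against 6 in treated and 7 in control OPM1 cells. SDC1, the defining surface marker, had mean signals of 11.9 in treated OPM1 cells and 9.71 in control OPM1 cells. XBP1 and JCHAIN were well above the limit in control OPM1 cells, at 1730 and 2030, though lower than in control MM1S cells (4500 and 10600). CD38 alone of the 8 was higher in control OPM1 than in control MM1S cells, at 489 against 54.2. The 7 B cell markers on the array had summed signals of 4038 and 5047 with Zalypsis and 8202 and 9155 in control OPM1 cells, against 159.5 to 201.6 on the MM1S arrays. The 5 T cell and myeloid markers summed to 175.1 and 222.4 on the treated OPM1 arrays, 74.58 and 92.06 on the OPM1 controls and at most 73.56 on MM1S arrays. These cells are therefore called OPM1-labelled. OPM1 control 1 also stood apart, with a 3' to 5' signal ratio of 2.26 for GAPDH against 0.963 to 1.06 for the rest. Treated OPM1-labelled arrays had 75th percentiles of 77.5 and 78.7, against 101 to 115 elsewhere. The poly-A control transcripts, added RNAs that are labelled with the sample, had geometric means of 1950 and 1480 on these treated arrays, against 349 and 541 on the OPM1-labelled controls. On the MM1S arrays they were only 22.7 to 30.6, so the lines differ in this measure too, and comparisons between the lines were not scaled for it. The part of these measures in the results below was not tested, and values without OPM1 control 1 or scaled to the poly-A controls are given beside the results of named genes in OPM1-labelled cells whose call they change.

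In OPM1-labelled cells, Zalypsis lowered CDK14, CDK8, CDK17 and CDK12 with log2 changes of -1.84 to -3.35, and raised CDK19 and CDK16 when each gene was read from its brightest probe set. CDK5 and CDK13 did not pass the test by that reading. Of the 8 genes, 4 were called lower and 2 higher at an adjusted p under 0.05, and over all 11865 genes tested 38.5% were called lower and 25.4% higher. The median change of the 8 genes was -1.03 and that of all genes -0.07. At the level of probe sets, 16 of the 23 tested were called lower, 3 higher and 4 neither, against 39% lower and 23.4% higher of all 21642 probe sets tested. In CDK14, CDK19 and CDK13 the probe sets of the same gene did not move together, which the values below show. Without OPM1 control 1 the count of lower genes was 5, the added gene being CDK5. Bulk RNA cannot tell fewer cells with a transcript from less of it in each cell.

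**Figure D1:**
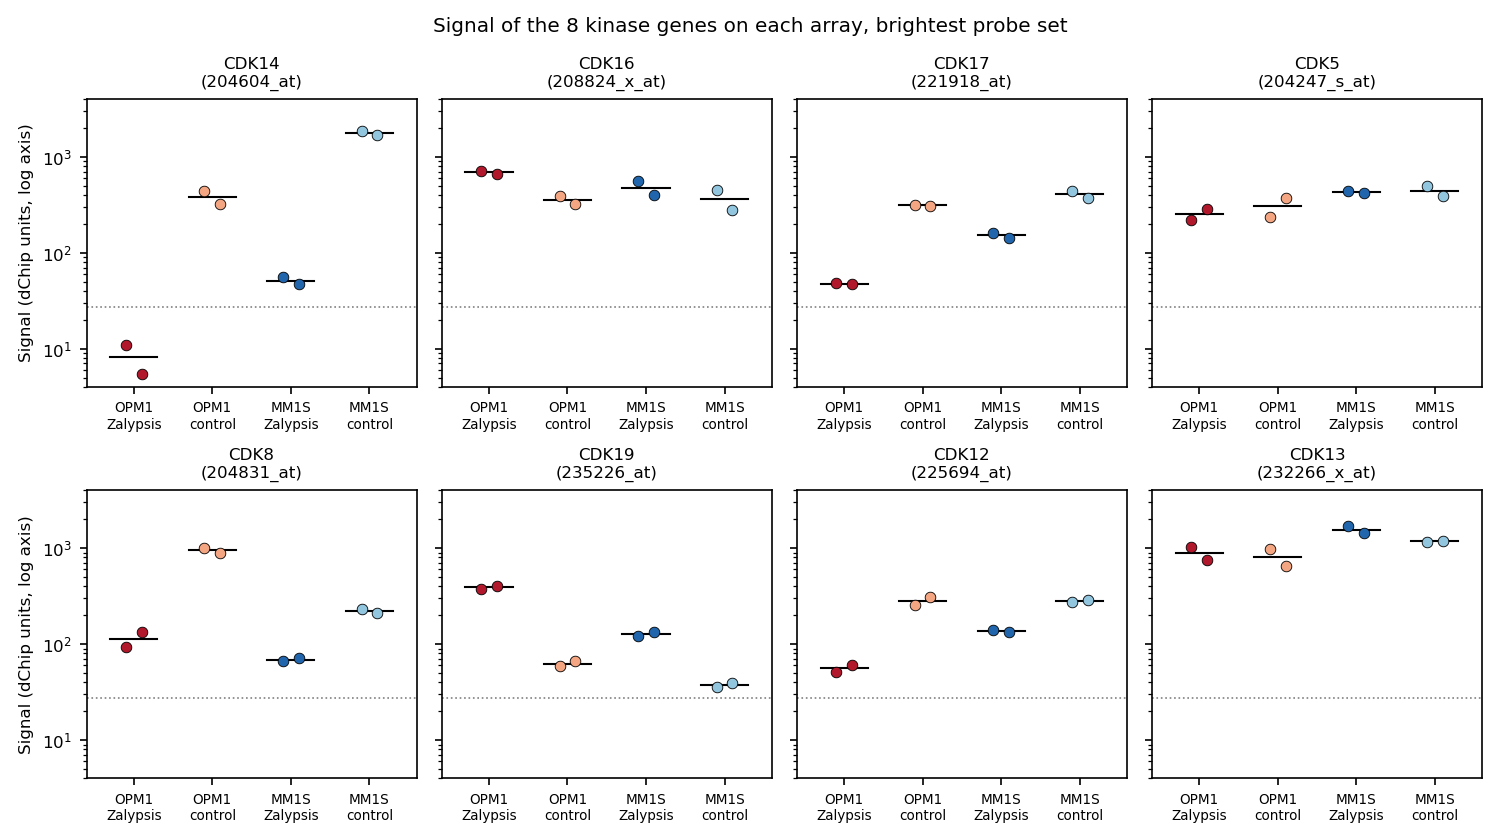
Signal (dChip units, log axis) of the brightest probe set of each of the 8 kinase genes on the 8 arrays, grouped as OPM1-labelled Zalypsis, OPM1-labelled control, MM1S Zalypsis and MM1S control. Points are arrays, bars are group means and the dotted line is the limit of 27.2. CDK14 lies under that line on both treated OPM1-labelled arrays, and CDK19 is the one gene of the 8 with all 4 treated arrays above all 4 control arrays.

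Promoter sequences are shown for the cyclin Y branch because its members moved in opposite directions in OPM1-labelled cells, with CDK14 and CDK17 lower and CDK16 higher. They are RefSeq sequences of the build GRCh38.p14, the 250 bases before an annotated start, read along the gene's strand. Capitals mark GC boxes, here GGGCGG or its reverse complement CCGCCC, so that both strands were searched, and neighbouring boxes may join or overlap. All 8 genes matched the RefSeq table, with 14 windows in all.

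CDK14, chr7:90709148-90709397, plus strand: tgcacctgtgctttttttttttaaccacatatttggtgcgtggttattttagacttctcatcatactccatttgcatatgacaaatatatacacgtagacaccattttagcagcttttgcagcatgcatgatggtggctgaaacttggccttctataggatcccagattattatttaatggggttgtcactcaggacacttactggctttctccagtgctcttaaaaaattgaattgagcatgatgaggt
CDK17, chr12:96400440-96400689, minus strand: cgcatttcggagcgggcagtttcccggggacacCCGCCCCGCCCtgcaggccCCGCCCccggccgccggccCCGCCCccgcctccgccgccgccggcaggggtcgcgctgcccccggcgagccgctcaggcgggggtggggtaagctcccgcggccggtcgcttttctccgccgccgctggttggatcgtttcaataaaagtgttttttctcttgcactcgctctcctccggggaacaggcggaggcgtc
CDK16, chrX:47218053-47218302, plus strand: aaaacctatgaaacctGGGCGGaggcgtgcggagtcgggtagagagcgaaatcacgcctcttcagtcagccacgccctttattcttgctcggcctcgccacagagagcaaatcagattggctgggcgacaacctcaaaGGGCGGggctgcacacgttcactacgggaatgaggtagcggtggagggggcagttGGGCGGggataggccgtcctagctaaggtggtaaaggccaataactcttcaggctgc

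The CDK14 window held 0 GC boxes and 2 CG pairs, with 38.4% G or C. The CDK17 window held 4 boxes and 34 CG pairs (73.6% G or C), and the printed CDK16 window, the first of 3 for that gene, 3 boxes and 16 CG pairs (58.4% G or C). The other CDK16 windows held 0 boxes with 18 CG pairs and 1 box with 4 CG pairs. Of all 35116 windows of this length in the table, 42.6% held a GC box, the median number of CG pairs was 11 and 29.3% had at most 3. A second CDK14 start had a window with 3 CG pairs and 0 boxes, while the first-listed windows of CDK5, CDK8 and CDK13 had 21, 21 and 30 CG pairs. CDK14 was thus the one gene of the 8 with under 4 CG pairs in every window listed. Whether the listed CDK14 starts include the start of its whole annotated span of 614 kb was not examined. The windows may therefore leave out a CDK14 promoter, and the low count holds for the listed windows only. TATAAA was found in 0 of the 14 windows, against 10.7% of all. These matches describe letters in reference windows and were not tied to any measurement of binding.

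CDK14, the kinase of this branch that acts with cyclin Y on LRP6, was lower with Zalypsis in OPM1-labelled cells and had separate levels in the 4 groups. Its brightest probe set, 204604_at, read 10.9 and 5.46 on the treated OPM1-labelled arrays and 439 and 321 on the OPM1-labelled controls. In MM1S the same probe set read 55.2 and 46.8 with Zalypsis and 1848 and 1677 in control cells. The 4 groups did not overlap, and their order from the highest was MM1S control, OPM1-labelled control, MM1S Zalypsis and OPM1-labelled Zalypsis. The share of all probe sets without overlap was not counted. Overlap is therefore only a description of single arrays, here and for the genes below. In OPM1-labelled cells the log2 change was -3.35 ± 0.15 (SE, adjusted p = 2.5e-14), on the scale log2(signal + 32) that is used throughout and that shrinks changes of dim probe sets. Both treated OPM1-labelled values lie under the limit of 27.2, so no plain ratio is given there. The change in MM1S, which chose the gene, was -4.43, with means of 51.0 ± 5.95 in treated and 1762 ± 121 in control cells (SD, n = 2 each).

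A second CDK14 probe set, 211502_s_at, was dimmer, at 6.78 and 4.25 on treated OPM1-labelled arrays and 22.1 and 31.6 on their controls, with a log2 change of -0.65 ± 0.13 (adjusted p = 5.3e-04). Its OPM1-labelled means, 5.515 with Zalypsis and 26.86 in controls, both lie under the limit of 27.2. Only its MM1S control mean, 208.5, was above that limit. It is among the 16 probe sets called lower, but its call in OPM1-labelled cells compares dim values and adds little to that of 204604_at. In MM1S it read 19.0 and 15.2 with Zalypsis and 201 and 216 in controls. The third, 243459_x_at, did not fall. It read 72.7 and 81.7 on treated and 45.0 and 65.2 on control OPM1-labelled arrays, higher without overlap but not called (log2 0.33, adjusted p = 0.056). In MM1S its groups overlapped, at 71.2 and 53.6 on treated and 62.0 and 67.7 on control arrays. So 2 of the 3 CDK14 probe sets were lower on every treated array of both lines, 1 of them from dim values in OPM1-labelled cells, and the third was not. The suffixes of 211502_s_at and 243459_x_at both mark sets that can read several transcripts, and why the sets differ was not tested.

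CDK17, a little studied relative of CDK16, also fell in OPM1-labelled cells. Its tested probe set read 48.0 and 46.6 with Zalypsis and 316 and 306 in control cells, a log2 change of -2.11 ± 0.13 (adjusted p = 5.9e-12). In MM1S it read 160 and 144 with Zalypsis and 442 and 374 in controls, a difference of -1.25. Treated arrays lay below control arrays in both lines without overlap. The other CDK17 probe set, 206474_at, was too dim to be tested.

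CDK16, which has been studied in vesicle transport and in sperm formation in mice, rose in OPM1-labelled cells. Its brightest probe set read 717 and 655 with Zalypsis and 388 and 324 in control cells (log2 0.89 ± 0.19, adjusted p = 3e-04), and 207239_s_at read 201 and 200.2 against 110 and 101 (log2 0.76 ± 0.15, adjusted p = 6.3e-04). In MM1S the groups overlapped on the brightest probe set, at 558 and 397 with Zalypsis and 444 and 278 in controls. The dimmest CDK16 probe set, 208823_s_at, overlapped in both lines and was not called (log2 0.17, adjusted p = 0.5). All 3 have suffixes for sets that can read several transcripts. The direction of CDK16 in OPM1-labelled cells turned when arrays were scaled to the poly-A controls (log2 -0.96), a scaling that moved the median of all genes to -1.58 there.

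CDK5 was measured by a single probe set, 204247_s_at. It read 219 and 284 on treated and 236 and 371 on control OPM1-labelled arrays, and 441 and 421 on treated and 489 and 386 on control MM1S arrays. Treated and control arrays overlapped in both lines. The log2 change in OPM1-labelled cells was -0.22 ± 0.18 (95% interval -0.60 to 0.15, adjusted p = 0.29), and it was not called. It was called without OPM1 control 1 (-0.52, adjusted p = 0.0234) and when arrays were scaled to the poly-A controls (-1.96, adjusted p = 4.28e-10).

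CDK8, a kinase of the Mediator complex, fell on each of its 3 probe sets in OPM1-labelled cells. The brightest, 204831_at, read 94.4 and 134 with Zalypsis and 999 and 896 in control cells (log2 -2.76 ± 0.15, adjusted p = 4.2e-13). The other 2 probe sets gave -2.51 and -1.78. In MM1S the brightest read 66.4 and 71.1 with Zalypsis and 235 and 210 in controls, a difference of -1.33, and the other 2 differed by -1.22 and -0.55. Treated and control arrays of CDK8 did not overlap on any of the 3 probe sets in either line, for which no share of all probe sets was counted.

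CDK19, the paralog of CDK8, gave opposite answers on different probe sets. The brightest, 235226_at, read 376 and 403 on treated and 58.8 and 66.6 on control OPM1-labelled arrays. That is a rise of 2.16 ± 0.12 (adjusted p = 1.3e-12 in the fit over genes and 3.9e-09 in that over probe sets). Yet 212899_at read 16.5 and 12.1 on treated and 156 and 134 on control arrays (log2 -1.94 ± 0.13, adjusted p = 1.5e-08), and 212897_at fell by 1.34 (adjusted p = 3.4e-06). The same split was seen in MM1S: 235226_at read 122 and 133.4 with Zalypsis and 35.8 and 39.6 in controls, while 212899_at read 12.2 and 18.9 with Zalypsis and 73.0 and 74.2 in controls. Each of these comparisons was free of overlap between treated and control arrays. CDK19 was the one gene of the 8 called in both directions, as were 631 of the 5643 genes with more than 1 tested probe set (11.2%). With the mean of all its probe sets, the change of CDK19 in OPM1-labelled cells was -0.33 and not 2.16. Which part of the transcript each probe set reads is not given in the files used here, so no direction is assigned to CDK19 as a gene.

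**Figure D2:**
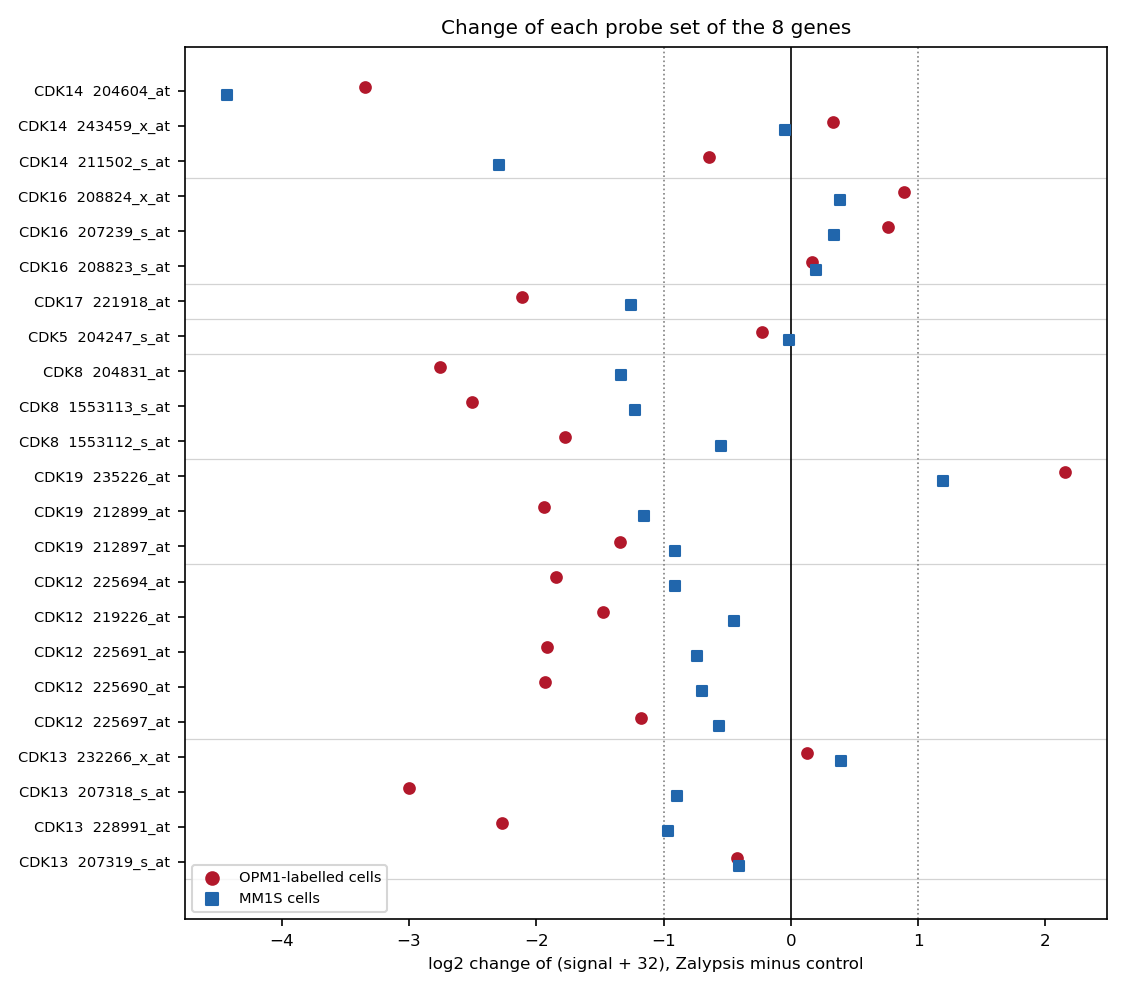
Log2 change of (signal + 32), Zalypsis minus control, of the 23 tested probe sets of the 8 genes, with circles for OPM1-labelled and squares for MM1S cells; dotted lines mark a 2-fold change. CDK12 and CDK8 probe sets lie on the negative side throughout, whereas those of CDK19 fall on both sides, from 2.16 to -1.94 in OPM1-labelled cells.

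CDK12, which binds cyclin K and is known for sustaining transcription of DNA repair genes, fell on all 5 of its tested probe sets in OPM1-labelled cells, by 1.18 to 1.94 on the log2 scale. The brightest, 225694_at, read 51.5 and 60.6 with Zalypsis and 256 and 313 in control cells (log2 -1.84 ± 0.13, adjusted p = 6.2e-11). In MM1S it read 140 and 132 with Zalypsis and 278 and 291 in controls, and the 5 probe sets differed by -0.45 to -0.91. Every treated array was below every control array of its line on each of the 5.

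CDK13, the other cyclin K kinase, was read differently by its brightest probe set and by the rest. The brightest, 232266_x_at, read 1024 and 748 on treated and 972 and 658 on control OPM1-labelled arrays, which overlap (log2 0.12 ± 0.18, 95% interval -0.25 to 0.50, adjusted p = 0.57). The other 3 tested sets fell. Of them, 207318_s_at read 80.8 and 90.1 with Zalypsis and 952 and 867 in controls (log2 -3.0 ± 0.16, adjusted p = 1.9e-09), 228991_at read 15.7 and 7.88 against 196 and 161 (log2 -2.27 ± 0.15, adjusted p = 1.2e-08), and 207319_s_at fell by 0.42 (adjusted p = 0.01). In MM1S the brightest set read 1691 and 1431 with Zalypsis and 1154 and 1199 in controls, while 207318_s_at read 378 and 313 with Zalypsis and 749 and 594 in controls. CDK13 thus counts as not called by the brightest set and as lower when sets with shared-transcript suffixes were left out (log2 -2.27). It was also called lower with the mean of all its sets (-0.79) and when scaled to the poly-A controls (-1.77).

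In MM1S, 3 of the 8 genes differed by more than 2-fold toward lower signal with Zalypsis and 1 toward higher, against 7.16% and 1.63% of all genes tested. The lower ones were CDK14, CDK8 and CDK17, the higher one was CDK19 by its brightest probe set, and the median of the 8 was -0.46 beside 0.02 for all genes. Of the 23 probe sets, 6 were past 2-fold lower and 1 higher, against 7.15% and 1.44% of all probe sets. As CDK14 was chosen on these arrays, nothing is read from these counts.

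The responses of the lines were compared for the 7 genes other than CDK14. CDK8 fell further in OPM1-labelled than in MM1S cells, with a difference in log2 change of -1.42 (95% interval -1.86 to -0.99, adjusted p = 9.1e-06). The difference was -0.93 for CDK12 (adjusted p = 3.6e-04) and -0.86 for CDK17 (adjusted p = 7.4e-04), and it was 0.96 for CDK19 by its brightest set (adjusted p = 1.1e-04). That is 3 lower and 1 higher of 7, against 31.2% and 15.3% of all genes. For CDK16 the difference was 0.50 (95% interval -0.06 to 1.06, adjusted p = 0.13), for CDK5 -0.21 (-0.74 to 0.32, adjusted p = 0.53) and for CDK13 -0.27 (-0.80 to 0.26, adjusted p = 0.41). The CDK16 difference was called without MM1S control 2 (0.81, adjusted p = 0.0142) and without MM1S Zalypsis 1 (0.73, adjusted p = 0.0469). Other probe sets disagreed with the brightest. For CDK19 the difference was -0.78 on 212899_at (adjusted p = 0.0034) and -0.43 on 212897_at (adjusted p = 0.13), so no direction is assigned to that gene here either. On 207318_s_at the CDK13 difference was -2.11 (adjusted p = 8.4e-06). All 5 tested CDK12 probe sets and all 3 of CDK8 were called lower in this comparison, as were 28.9% of all probe sets. The CDK14 difference was 1.09, given without a test, and its size depended on the pseudocount of 32. It was 0.70 with a pseudocount of 16 and 1.38 with 64. Plain means would order the lines the other way, but both treated OPM1-labelled values of CDK14 lie under the limit of 27.2. Which line had the larger fall of CDK14 is therefore not read from these values.

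Between untreated cells, CDK8 was higher in OPM1-labelled than in MM1S cells, at 999 and 896 against 235 and 210 (log2 1.95 ± 0.15, adjusted p = 1.4e-10). CDK19 was higher by 0.44 (adjusted p = 0.0037), and each of its 3 tested probe sets was called higher, as were 26.7% of all probe sets. CDK13 by its brightest set (-0.54, adjusted p = 0.012), CDK5 (-0.51, adjusted p = 0.019) and CDK17 (-0.35, adjusted p = 0.026) were lower. So 2 of 7 genes were higher and 3 lower, against 28.6% and 35.2% of all genes, with CDK16 and CDK12 not called (log2 0.01 and -0.01). CDK14 differed by -2.13, without a test. For CDK13 the probe sets disagreed again, 207318_s_at being higher by 0.43 in OPM1-labelled cells (adjusted p = 0.03), and for CDK16 207239_s_at was lower by 0.76 (adjusted p = 7.6e-04). None of the 3 lower calls held without each array in turn. CDK17 lost its call without MM1S control 1, OPM1 control 1 or OPM1 control 2 (log2 -0.24 to -0.37), CDK5 without MM1S control 1 or OPM1 control 1 (-0.35 and -0.21), and CDK13 without MM1S control 2 or OPM1 control 2 (-0.51 and -0.27). This comparison shares control arrays with those of Zalypsis, so their values are given side by side and are not independent.

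Of 17 partner genes, 15 were bright enough to test, and 8 fell and 3 rose in OPM1-labelled cells, beside 7 and 2 in MM1S. Over all genes 38.5% fell and 25.4% rose in OPM1-labelled cells, and 21.1% fell and 16.4% rose in MM1S. CCNY, which encodes cyclin Y, the activator of CDK14, read 47.9 and 44.7 with Zalypsis and 239 and 302 in control OPM1-labelled cells. It read 42.6 and 56.6 with Zalypsis and 284 and 288 in control MM1S cells. The log2 changes were -1.94 (adjusted p = 3.1e-11) and -1.97 (adjusted p = 1.3e-10), and they did not differ detectably (difference 0.03, adjusted p = 0.92). LRP6, the Wnt co-receptor that CDK14 phosphorylates, fell by 1.62 in OPM1-labelled and 0.79 in MM1S cells, while CCNYL1, a cyclin Y relative, rose by 0.40 in OPM1-labelled cells (adjusted p = 0.0074) and was at 0.27 in MM1S (adjusted p = 0.1). Scaled to the poly-A controls, CCNYL1 was at -1.03 in OPM1-labelled cells. LRP5 was too dim.

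Among partners of CDK5, CDK5R1, which encodes p35, rose by 0.89 in OPM1-labelled (adjusted p = 3.6e-05) and 0.70 in MM1S cells (adjusted p = 0.0011). It read 87.9 and 54.7 with Zalypsis and 20.4 and 26.1 in control OPM1-labelled cells. CDK5R2 was too dim. CDK5RAP1 and CDK5RAP2, genes first named for binding the CDK5 activator, fell in both lines, by 1.58 and 2.25 in OPM1-labelled and by 0.49 and 1.76 in MM1S cells, and CDK5RAP3 rose by 0.48 in OPM1-labelled cells and was at 0.31 in MM1S (adjusted p = 0.16), a difference of 0.18 (adjusted p = 0.57). Scaled to the poly-A controls, CDK5R1 was at -0.21 and CDK5RAP3 at -1.39 in OPM1-labelled cells. The call of CDK5RAP3 was lost without OPM1 control 2 (0.44) or OPM1 Zalypsis 1 (0.38), and that of CDK5RAP1 in MM1S without MM1S control 1 (-0.36) or MM1S Zalypsis 2 (-0.34). The CABLES genes, whose products link CDK5 to other kinases, split by line. CABLES1 was at -0.07 in OPM1-labelled cells (adjusted p = 0.73) and fell by 1.77 in MM1S, and CABLES2 fell by 0.85 in OPM1-labelled cells and rose by 1.25 in MM1S. CABLES1 in OPM1-labelled cells was called higher after quantile normalization (0.33) and lower when scaled to the poly-A controls (-1.74). The differences between the lines were 1.70 (adjusted p = 2.7e-06) and -2.10 (adjusted p = 1.8e-08).

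In the Mediator kinase module, MED13L fell in both lines (log2 -2.81 in OPM1-labelled and -2.56 in MM1S cells), and so did MED13 (-1.82 in OPM1-labelled and -0.73 in MM1S cells). CCNC, which encodes cyclin C, read 426 and 538 with Zalypsis and 1676 and 1619 in control OPM1-labelled cells (log2 -1.72, adjusted p = 8e-10), against 1993 and 1885 with Zalypsis and 2204 and 1986 in control MM1S cells (log2 -0.11, adjusted p = 0.61). The difference between lines was -1.61 (adjusted p = 1.7e-06). MED12 (log2 0.31 in OPM1-labelled and 0.21 in MM1S cells) and MED12L (0.06 in OPM1-labelled and 0.07 in MM1S cells) were not called in either line. In OPM1-labelled cells MED12 was called higher after quantile normalization (0.66) and lower when scaled to the poly-A controls (-1.49), as was MED12L (-1.07). CCNK, the cyclin K gene, was not called with Zalypsis (log2 0.32, adjusted p = 0.081 in OPM1-labelled cells; 0.21, adjusted p = 0.33 in MM1S), and it was higher in untreated OPM1-labelled cells, at 1497 and 1340 against 498 and 407 in MM1S (log2 1.59, adjusted p = 9.3e-09). The Zalypsis change of CCNK in OPM1-labelled cells was called higher after quantile normalization (0.44) and in the fit of these 4 arrays alone (adjusted p = 0.0424), and lower when scaled to the poly-A controls (-1.61).

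**Figure D3:**
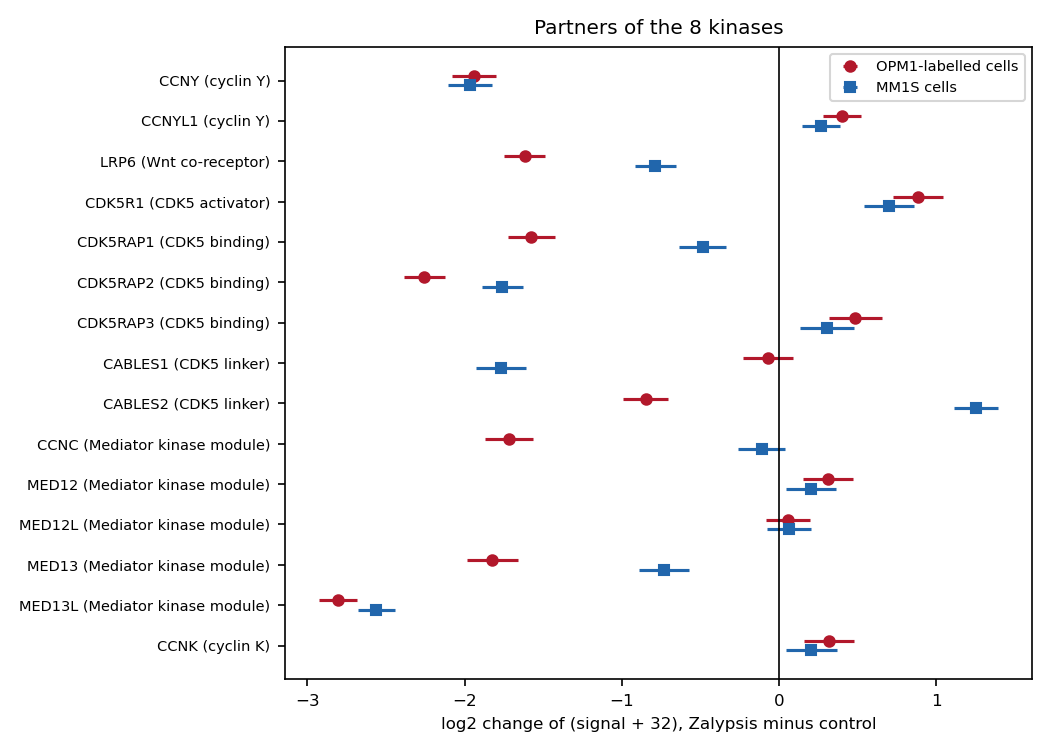
Log2 change of (signal + 32), Zalypsis minus control, of the 15 tested partner genes, with circles for OPM1-labelled and squares for MM1S cells and bars for 1 standard error. CCNY and MED13L lie near each other in both lines, while CABLES1, CABLES2 and CCNC are apart, as with CCNC at -1.72 and -0.11.

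The Mediator core, the part of the complex that is not the kinase module, went both ways: of 23 tested genes, 12 rose and 7 fell in OPM1-labelled cells, with a median of 0.35, and 6 rose and 6 fell in MM1S. Over all genes tested 25.4% rose and 38.5% fell in OPM1-labelled cells, and 16.4% rose and 21.1% fell in MM1S. MED27 (log2 -2.69) and MED14 (-2.27) were the largest falls and MED19 (2.01) and MED28 (1.69) the largest rises in OPM1-labelled cells. MED14 was at 0.21 without probe sets with shared suffixes, and when scaled to the poly-A controls MED28 was at -0.23 and MED19 at 0.16 (adjusted p = 0.618), so that neither rise was called. Among 8 tested other CDKs and CDK-like kinases, 3 rose and 2 fell in OPM1-labelled cells, beside the same 25.4% and 38.5% of all genes. CDK6, a partner of D-type cyclins, had signals of 48.4 and 49.3 with Zalypsis and 1491 and 1739 in controls there (log2 -4.34). CDK7, the kinase that activates other CDKs, fell by 0.58, and CDKL3 and CDK9, the kinase of P-TEFb, rose by 1.73 and 0.94. The call of CDK7 was lost without OPM1 control 2 (-0.40) or OPM1 Zalypsis 1 (-0.37), and when scaled to the poly-A controls CDK9 was at -0.92 and CDKL3 at 0.40, no longer called (adjusted p = 0.0726).

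CDK14 is a long gene, with an annotated span of 614 kb in RefSeq, and genes of different span changed differently. Of tested genes with a span under 10 kb, 14.9% were lower and 43.9% higher in OPM1-labelled cells, with a median of 0.24, and of those of 100 to 200 kb 70% were lower and 6.45% higher, with a median of -1.27. In MM1S the medians of these classes were 0.16 and -0.66. Genes above 200 kb, the class of CDK14, had medians of -0.67 in OPM1-labelled and -0.81 in MM1S cells. In OPM1-labelled cells 56.4% of that class were lower and 9.42% higher, beside 61.7% and 9.81% of genes of 50 to 100 kb. CDK14 lay below its class median there, at -3.35. Among the 8, CDK8 (151 kb), CDK17 (122 kb) and CDK12 (106 kb) lay below the median of their class of 100 to 200 kb in both lines, and CDK13 (149 kb) by its brightest set lay above it. CDK16 (11.7 kb) and CDK5 (4.08 kb) are short. CDK19 (206 kb) by its brightest set stood at 2.16, against the median of -0.67. The values describe spans in an annotation, and other properties that vary with span were not examined.

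**Figure D4:**
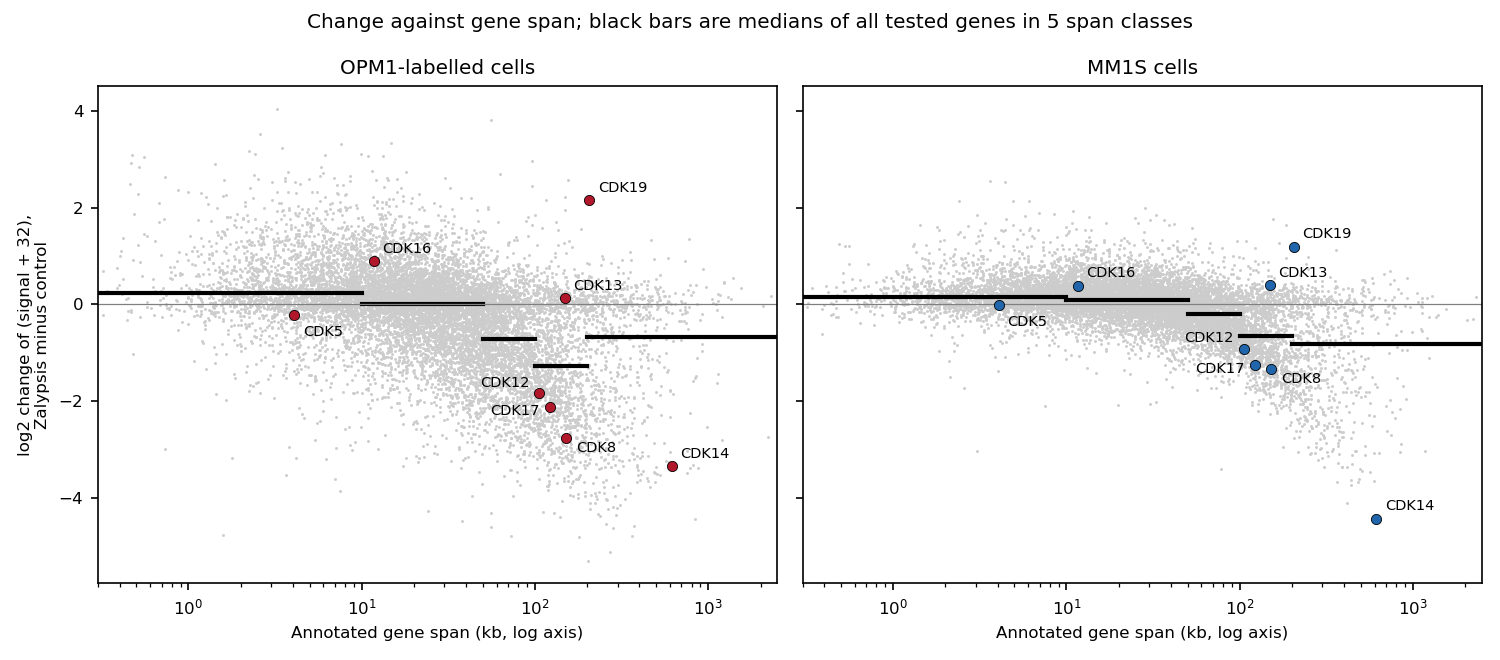
Log2 change of (signal + 32), Zalypsis minus control, against annotated gene span in kb (log axis) in OPM1-labelled and in MM1S cells. Grey points are all tested genes with a span, bars are class medians and labelled points are the 8 genes by their brightest probe set; the bars go below 0 above 50 kb, as at -1.27 and -0.66 between 100 and 200 kb.

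The genes whose signal over the 8 arrays was most like that of CDK14 were PPP3CA, FNDC3B, SLX4IP, SGMS1 and STAG1, with Pearson correlations of 0.9981 to 0.9955 on the log2 scale. PPP3CA read 10.4 and 14.2 with Zalypsis and 198 and 184 in control OPM1-labelled cells, and STAG1 read 6.67 and 4.89 with Zalypsis and 302 and 299 in controls. Their spans run from 193 to 416 kb. Within the 8, CDK17 (0.935) and CDK12 (0.893) were most like CDK14, and CDK16 (-0.755) and CDK19 (-0.924, brightest set) least. These correlations describe 4 groups of arrays that share treatment and line, and carry no p.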

How the data were processed

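The authors deposited linear intensity values for 54675 probe sets on 8 arrays, made with dChip per the series' design text. For dChip, the version, between-array normalization and signal model are not given here. RNA input was 100 ng per the labels' protocols, in a 2-round amplification with biotin, and the design text names another labelling kit. Arrays have no depth, and precision is limited by the number of arrays.

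Values were turned into log2(value + 32). Of the probe sets, 41091 had 1 gene symbol in the platform annotation, 1801 several and 11721 none, and 62 were controls. The probe set with the highest mean log2 value over the 8 arrays stood for its gene (19775 genes), and the 40% of genes with the lowest mean were left out, leaving 11865. The 4 groups were fitted in limma 3.58.1 under R 4.3.3 by lmFit and contrasts.fit, then eBayes with a trend, with 1 shared spread (4 residual degrees of freedom, prior 17), and Benjamini-Hochberg adjustment ran over all genes tested. Members' probe sets were read from a separate fit of the same form over 21642 probe sets. Adjusted p-values of a gene's brightest set come from the fit over genes unless stated, and those of its other sets from the fit over probe sets. The sizes of p-values from these fits are not compared. Genes are named by a fixed rule: the 8 members, their partners, the 2 largest called rises and falls of the Mediator core and other CDK lists in OPM1-labelled cells, and the 5 genes most correlated with CDK14. The members and lists were chosen with earlier results of these data known. The steps were tested on simulated data. Alternatives were pseudocounts of 16 and 64, no filter, quantile normalization, the mean of a gene's probe sets, no probe sets with shared suffixes, only the compared groups, a replicate block, each array left out and, for OPM1-labelled cells, scaling to the poly-A controls.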

Additional observations from a re-analysis of the deposited data

Results flagged for a closer look

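Zalypsis changed 17 of the named genes by different amounts in the lines, by the test of the difference itself (log2 change in OPM1-labelled minus that in MM1S cells, limma, adjusted p at most 0.027). Over all 11865 genes tested, 31.2% were called lower and 15.3% higher in this comparison. Of 7 kinases tested, 3 were lower and 1 higher, and of 15 partners 6 were lower and 1 higher. Nothing is read from the count of 17. Among the kinases the differences were -0.86 for CDK17, -1.42 for CDK8, 0.96 for CDK19 by its brightest probe set and -0.93 for CDK12. The CDK19 probe set 212899_at was called the other way, at -0.78 (adjusted p = 0.0034). Among partners they were -0.83 for LRP6, -1.09 for CDK5RAP1, -0.49 for CDK5RAP2, 1.70 for CABLES1, -2.10 for CABLES2, -1.61 for CCNC and -1.09 for MED13. Among other kinases they were -2.16 for CDK6 and 1.5 for CDKL3, and in the Mediator core -0.78 for MED27, -1.72 for MED14, 1.54 for MED19 and 0.66 for MED28. These other kinases and Mediator core genes were named for large changes in OPM1-labelled cells, on arrays that the difference also uses. Their differences are therefore a description and not separate support. CABLES2 is the one of these genes called in opposite directions in the lines. The call of CDK5RAP2 was lost without MM1S control 2, MM1S Zalypsis 2, OPM1 control 1 or OPM1 Zalypsis 2 (adjusted p = 0.0816 to 0.103), and that of MED28 without MM1S Zalypsis 2 (adjusted p = 0.0561). With the mean of all probe sets of a gene, the calls of CDK17 (-0.34, adjusted p = 0.0987), CDK19 (-0.11, adjusted p = 0.523) and MED27 (-0.34, adjusted p = 0.109) were lost, and so was that of CDK5RAP2 (0.07). Groups of 2 arrays are too small for a check of single arrays that stand apart.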

How the results depend on the processing

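In OPM1-labelled cells 4 of the 8 kinase genes were called lower and 2 higher, and the call of CDK14 held in every alternative run, with log2 changes of -4.43 (poly-A scaling) to -1.22 (mean of all its probe sets). With the mean of all probe sets, CDK19 (-0.33, adjusted p = 0.00717) and CDK13 (-0.79, adjusted p = 4.67e-05) were called lower as well. Without probe sets with shared suffixes CDK13 was called lower (-2.27), and CDK16 and CDK5 had no probe set left to test. Scaling to the poly-A controls gave 7 lower and 1 higher, and the count higher was also 1 with the mean of all probe sets and without probe sets with shared suffixes. Without 1 array at a time these counts were 4 to 5 lower and 2 higher. In MM1S the 1 gene past 2-fold higher became 0 with a pseudocount of 64 and with the mean of probe sets. For the difference in response, the count higher was 2 after quantile normalization and with the replicate block, 0 with the mean of probe sets and 1 to 2 without 1 array at a time. It was 2 without MM1S control 2 or MM1S Zalypsis 1, the added gene being CDK16. Between untreated lines, 1 gene was lower after quantile normalization and without shared-suffix sets, and 1 to 3 without 1 array at a time, with 1 in the absence of MM1S control 1, OPM1 control 1 or OPM1 control 2. Quantile normalization moved the share of lower genes among all calls to 45.4%, against 60.3% as reported, in OPM1-labelled cells, and to 52.4%, against 67%, for the difference in response. In MM1S it was 45.4%, against 56.2%.

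Changes turned direction in these cases, and the cause was not tested. All were called as reported except CDK19 in MM1S, which had no test. Several were no longer called after the turn. These were CDK5R1 and MED28 under poly-A scaling, and the differences of CDK19 and CDK5RAP2 with the mean of probe sets. The others were CDK13 between untreated lines in both settings, and CCNYL1 and MED14 without shared-suffix sets. Under poly-A scaling, which moved the median of all genes in OPM1-labelled cells to -1.58, the log2 changes there were -0.96 for CDK16, -1.03 for CCNYL1, -0.21 for CDK5R1, -1.39 for CDK5RAP3, -0.92 for CDK9 and -0.23 for MED28. The same scaling called 6 genes lower that were not called as reported, CDK5 (-1.96), CDK13 (-1.77), CABLES1 (-1.74), CCNK (-1.61), MED12 (-1.49) and MED12L (-1.07), of which CDK13, CCNK, MED12 and MED12L had positive values as reported, and the calls of CDKL3 and MED19 were lost. With the mean of probe sets, CDK19 was at -0.33 in OPM1-labelled cells, -0.22 in MM1S and -0.11 for the difference, CDK13 at 0.10 between untreated lines, and CDK5RAP2 at 0.07 for the difference and -0.27 between untreated lines. Without shared-suffix sets, CDK13 was at 0.034 and CCNYL1 at 0.11 between untreated lines, and MED14 at 0.21 in OPM1-labelled cells and 0.33 for the difference. The other 1781 of the alternative values for single genes kept their call, and their direction where called, 69 lost a call, 38 gained one and 27 untested values moved. Arrays with the same label number deviated together (correlations 0.212 in MM1S and 0.209 in OPM1-labelled cells), but with 2 pairs a line this shows no pairing. The replicate block gave CDK16 a called difference of 0.50 (adjusted p = 0.0103), and called CCNK (0.32, adjusted p = 0.0112) and MED12 (0.31, adjusted p = 0.0225) higher in OPM1-labelled cells and CDK5RAP3 (0.31) higher in MM1S. Between untreated lines it called MED13 (-0.26) and CDK7 (0.35). How far dim signals such as that of CDK14 on treated OPM1-labelled arrays lie above background was not measured.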
